A study of Mus musculus with 72 samples.

Results

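The cytosolic ribosomal protein genes of mouse ovarian follicles are described here across hormone form and dose. The members were the rows whose symbol was Rps or Rpl with a number and at most a short suffix, together with Rpsa, Rplp0, Rplp1 and Rplp2, and without rows named as pseudogenes by the suffix -ps. They came to 89 of the 56691 gene rows. The symbols sorted into 77 canonical genes, 6 protein-coding paralogs (Rpl3l, Rpl7l1, Rpl10l, Rpl22l1, Rpl39l and Rps27l) and 6 rows that GENCODE M21 annotates as pseudogenes despite their symbols (Rpl6l, Rpl32l, Rps3a2, Rps3a3, Rps4l and Rps12l1). Of the 89 rows, 87 passed the filter on low counts. Rpl3l held 2 counts over all libraries and Rps12l1 held 0, and neither was tested.

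The study asked how differently glycosylated forms of follicle-stimulating hormone (FSH) act on the transcriptome of early secondary follicles, each an oocyte within layers of granulosa cells, which carry the FSH receptor. FSH21 lacks a glycan that the fully glycosylated FSH24 carries. The groups were follicles given FSH21 at 10 ng/ml, FSH24 at 10 ng/ml, FSH21 at 1 ng/ml and FSH24 at 1 ng/ml for 24 h, and untreated follicles, with 3 polyadenylated RNA libraries for each treated group. Libraries numbered 2, 3 and 4 were those at 10 ng/ml with 3 untreated libraries, and libraries numbered 1, 5 and 6 were those at 1 ng/ml with the other 3 untreated libraries. All follicles, untreated ones included, were cultured in medium with albumin, fetuin and an insulin-transferrin-selenium supplement. Strain and age are not given in the sources used here. No label ties a library to its own animal or culture, and the spread that enters the p-values may therefore be technical. Each dose was set against the untreated libraries of its own numbers, and dose and number set cannot be told apart in the treated libraries.

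Ribosomal proteins and ribosomal RNA form the small and large subunits of the cytosolic ribosome, and the acidic stalk of the large subunit recruits the translation factors. Their messenger RNAs begin with a C followed by a run of pyrimidines, the terminal oligopyrimidine or TOP motif, through which the kinase complex mTORC1 and the RNA-binding protein LARP1 set their translation and stability as a group. Growing cells make ribosomal proteins in near-equal amounts, and the growing oocyte stores ribosomes for the embryo while granulosa cells around it divide under FSH.

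The motif is visible at the annotated starts of several members. RefSeq promoter entries on GRCm38.p6 matched 64 members by symbol, 57 of them canonical. A C with at least 4 following pyrimidines (C or T), beginning within 5 bases of the annotated start on the coding strand, was present in 27 of the 57 canonical genes (47.4%), against 23.8% of the 12619 tested genes with an entry. A start annotated some bases away from the true one hides the motif, so a gene without a match is not shown to lack it. The windows below run from 10 bases before to 20 bases after the annotated start, 5′ to 3′, with the matching run in capitals. Rps6, Rplp2, Rpl12, Rpl13a, Rps27 and Rps26 are shown because they carry the motif and are described below. The paralogs Rps27l and Rpl22l1 are shown because an annotated start of each matches as well. Rps27l has another annotated start, with its window at chr9:66946403-66946432, that does not match.
Rps6: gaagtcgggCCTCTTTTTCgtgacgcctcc
Rplp2: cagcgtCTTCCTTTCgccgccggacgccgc
Rpl12: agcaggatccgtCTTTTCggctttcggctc
Rpl13a: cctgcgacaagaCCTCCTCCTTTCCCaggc
Rps27: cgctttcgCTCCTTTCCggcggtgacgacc
Rps26: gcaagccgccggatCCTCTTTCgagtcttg
Rps27l: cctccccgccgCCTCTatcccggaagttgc
Rpl22l1: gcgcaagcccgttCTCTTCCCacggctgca
These windows lie at chr4:86857348-86857377 on the minus strand for Rps6, chr7:141447641-141447670 on the plus strand for Rplp2, chr2:32961702-32961731 on the plus strand for Rpl12 and chr7:45128726-45128755 on the minus strand for Rpl13a. Those of Rps27, Rps26, Rps27l and Rpl22l1 lie at chr3:90213629-90213658 (minus), chr10:128626487-128626516 (minus), chr9:66946076-66946105 (plus) and chr3:28805498-28805527 (plus). The 27 with a match had a median log2 fold change of -0.53 under FSH21 at 10 ng/ml and the 30 with an entry and no match one of -0.54. Among tested genes outside the family, the 2977 with a matching start had a median of -0.00 and the 9592 without one a median of 0.01. These counts, with those of the family, do not sum to the 12619 tested genes given above, and the difference was not resolved.

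The 18 libraries held between 17512921 and 22509689 counts each. Levels are CPM, counts scaled to a common library total with TMM factors. Fold changes are log2 values estimated by edgeR, each with its standard error (SE). Adjusted p-values come from edgeR's quasi-likelihood test with Benjamini-Hochberg adjustment over all 18727 tested genes, and called means an adjusted p under 0.05. The median gene was at 0.00 on the log2 scale in each treatment comparison. The scaling largely sets this value, so it does not show that the other transcripts were unchanged. A level is relative to the other transcripts of the library, and in whole follicles fewer cells of a type and less RNA per cell cannot be told apart.

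At 10 ng/ml both hormone forms lowered the share of the transcriptome that encodes ribosomal proteins. The 89 rows took 1.70%, 1.89% and 1.95% of library counts after FSH21 and 1.72%, 2.01% and 1.70% after FSH24, against 2.79%, 2.49% and 2.74% in the untreated libraries of the same numbers 2, 3 and 4. No treated library reached any untreated one. At 1 ng/ml the share was 2.29%, 2.00% and 2.30% after FSH21 and 2.86%, 2.93% and 2.66% after FSH24, against 2.84%, 2.42% and 2.49% in untreated libraries 1, 5 and 6. The group means were 1.85% ± 0.131 after FSH21 and 1.81% ± 0.173 after FSH24 at 10 ng/ml, against 2.67% ± 0.164 without hormone (SD, n = 3 libraries each). At 1 ng/ml they were 2.20% ± 0.170 after FSH21 and 2.82% ± 0.141 after FSH24, against 2.58% ± 0.225 without hormone (SD, n = 3 libraries each).

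**Figure D1:**
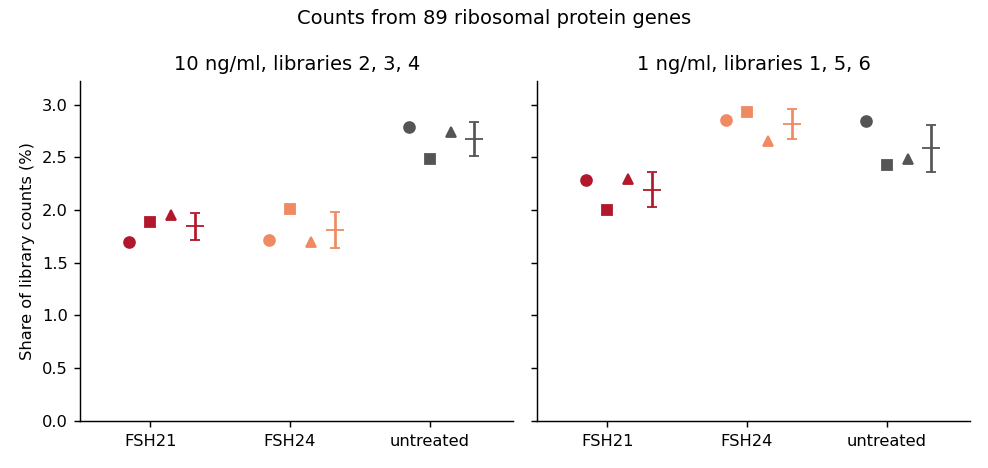
Share of each library's counts (y axis, %) that fell in the 89 ribosomal protein rows, with 1 point per library, equal symbols for equal library numbers, and the mean ± SD (n = 3) beside each group. At 10 ng/ml all treated libraries lie between 1.70% and 2.01% and the untreated ones between 2.49% and 2.79%, while at 1 ng/ml the FSH24 libraries lie among and above the untreated ones.

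Almost the whole family fell together at the high dose. After FSH21 at 10 ng/ml, 69 of the 87 tested members were called lower, where 4.21% of all genes were (789, or 1240 with the replicate number as a block, under which 68 members were called), and 0 were called higher, where 5.96% of all genes were (74 lower and 0 higher at an unadjusted p under 0.05; 70 lower and 0 higher by DESeq2). After FSH24 at 10 ng/ml, 71 were called lower and 0 higher, where 3.30% and 5.12% of all genes were (74 and 0 at an unadjusted p under 0.05; 71 and 0 by DESeq2). The shares of all genes passing an unadjusted p under 0.05 or called by DESeq2 are not reported here for either form at this dose. The median log2 fold change of the members was -0.54 under FSH21 and -0.58 under FSH24. Every called member was a canonical gene, and all 77 canonical genes had a negative fold change under both forms, from -0.88 to -0.23 under FSH21 and from -0.79 to -0.22 under FSH24. The interquartile range of the canonical genes lay between -0.60 and -0.47 under FSH21 and between -0.64 and -0.51 under FSH24, clear of the interquartile range of all tested genes, from -0.16 to 0.18 under FSH21 and from -0.16 to 0.17 under FSH24.

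The fall appeared in every pair of libraries with the same number. Under FSH21 all 77 canonical genes were lower than in the untreated library of the same number in each of numbers 2, 3 and 4, with median log2 ratios of -0.75, -0.37 and -0.50. Under FSH24 the counts were 77, 74 and 77, with medians of -0.74, -0.30 and -0.73. Over all tested genes the median ratios in these pairs were 0.007, 0.001 and 0.004 under FSH21. Under FSH24 they were 0.007, 0.000 and 0.002. The share of all genes that were lower in each pair is not reported here. Number 3 gave the smallest difference under both forms, and its untreated library had the lowest share of the 3. The 3 treated libraries did not overlap the 3 untreated ones in 74 of the 87 members under FSH21, where 12% of all genes separated downwards, and in 76 under FSH24, where 10.7% did. Leaving out any 1 library left 56 to 67 members called lower under FSH21 and 54 to 70 under FSH24. With the 6 untreated libraries taken as 1 group, 71 and 72 were called lower. The numbers of all genes called lower in that fit are given with the alternatives at the end.

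**Figure D2:**
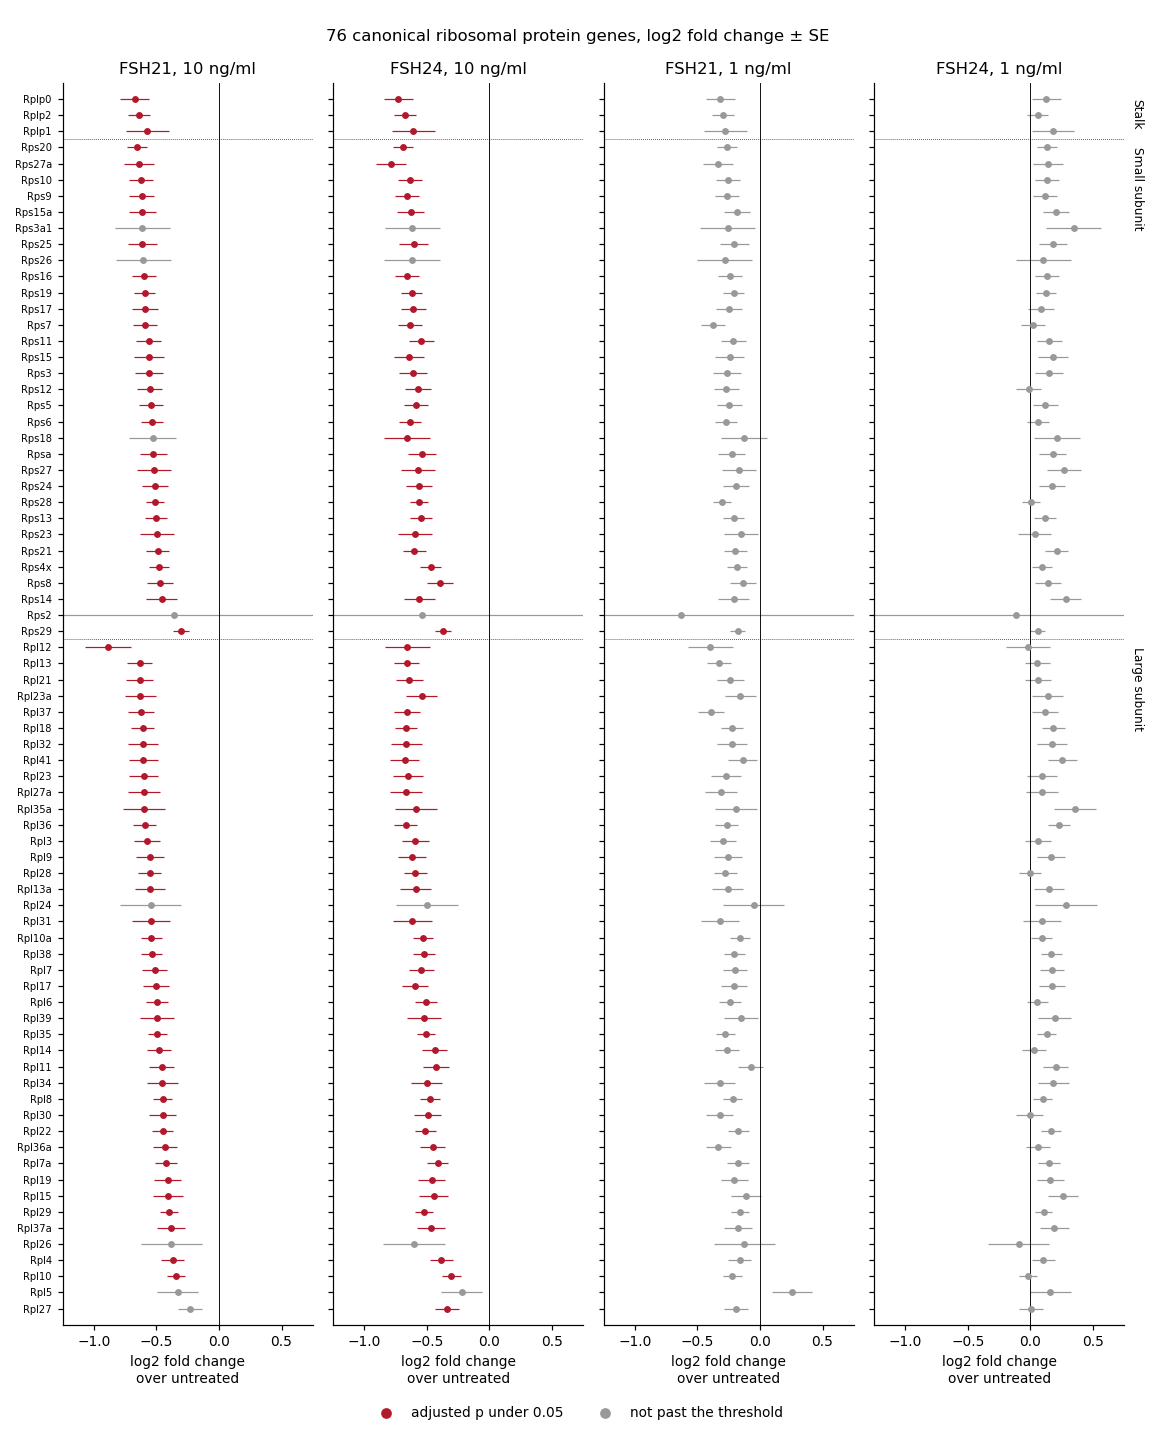
Log2 fold change over untreated libraries of the same numbers (x axis, point ± SE) for 76 of the canonical genes (y axis, ordered within the stalk, small and large subunit by the FSH21 value at 10 ng/ml). Red points passed an adjusted p of 0.05 (edgeR), gray points did not, and the error bars of Rps2 run past the axes; the red points cover 68 of these genes under FSH21 and 70 under FSH24 at 10 ng/ml and 0 under either at 1 ng/ml.

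By subunit, 27 of 31 small-subunit genes, 39 of 43 large-subunit genes and all 3 stalk genes were called lower under FSH21 at 10 ng/ml, with medians of -0.55, -0.51 and -0.64. Under FSH24 the counts were 28, 40 and 3, with medians of -0.61, -0.53 and -0.67. The stalk proteins P0, P1 and P2 recruit elongation factors to the ribosome. Rplp0, which anchors the stalk and is widely used as a reference gene for normalization, measured 455, 568 and 573 CPM after FSH21 and 450, 624 and 462 CPM after FSH24, against 829, 809 and 906 CPM in untreated follicles. All 6 treated libraries lay below all 3 untreated ones. Its log2 fold change was -0.67 (SE 0.11, adjusted p = 0.000707) under FSH21 and -0.73 (SE 0.11, adjusted p = 0.000504) under FSH24. Rplp2, with the TOP-like start shown above, measured 230, 253 and 227 CPM after FSH21 and 227, 246 and 222 CPM after FSH24, against 406, 343 and 360 CPM without hormone. Its fold changes of -0.64 (SE 0.09) and -0.67 (SE 0.09) passed in both comparisons. Rplp1 had 282, 320 and 323 CPM after FSH21 and 284, 336 and 283 CPM after FSH24, against 484, 428 and 464 CPM without hormone. Its groups did not overlap, but its call was the weakest of the stalk: the adjusted p was 0.0459 under FSH21 and 0.0388 under FSH24. Without any 1 of the 6 libraries the FSH21 call was lost (adjusted p 0.0683 to 0.145), and without 5 of the 6 in turn the FSH24 call was (0.0464 to 0.135 over all 6).

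Among the small-subunit genes, Rps20, a protein of the subunit's head, gave the smallest adjusted p of the named members. It measured 116, 132 and 131 CPM after FSH21 and 114, 141 and 114 CPM after FSH24, against 203, 190.4 and 202 CPM in untreated follicles. The log2 fold changes were -0.66 (SE 0.08, adjusted p = 2.38e-05) and -0.69 (SE 0.08, adjusted p = 2.41e-05). Rps27a, which is translated as a fusion of ubiquitin with ribosomal protein eS31 and so also supplies ubiquitin, measured 164, 202 and 200.4 CPM after FSH21 and 162, 189.8 and 159 CPM after FSH24, against 294, 296 and 291 CPM without hormone. Its fall of -0.79 (SE 0.12, adjusted p = 0.000482) was the largest of all called members under FSH24, and under FSH21 it was -0.64 (SE 0.12). Rps6, the substrate of the S6 kinases downstream of mTORC1, measured 186, 226 and 204 CPM after FSH21 and 175, 213 and 185 CPM after FSH24, against 311, 277 and 301 CPM without hormone. The fold changes were -0.53 (SE 0.09, adjusted p = 0.000519) and -0.64 (SE 0.09, adjusted p = 0.000142).

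Rps19, a subunit-assembly protein whose human gene is mutated in Diamond-Blackfan anemia, fell by 0.59 under FSH21 and by 0.62 under FSH24 on the log2 scale (SE 0.08 for both). Rps3, a protein at the messenger RNA entry channel that also takes part in DNA repair, fell by 0.56 and by 0.61 (SE 0.11 for both). Rpsa, known also as the laminin receptor precursor, fell by 0.52 and by 0.54 (SE 0.11 for both). Rpsa measured 494, 547 and 493 CPM after FSH21 and 477, 553 and 486 CPM after FSH24, against 833, 676 and 698 CPM without hormone, again with no overlap. Rps2 and Rps26 are taken up with the pseudogene rows.

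In the large subunit, Rpl12, part of the stalk base, had the largest called fall under FSH21, -0.88 (SE 0.18, adjusted p = 0.00393), but from a low level. It measured 11.2, 13.5 and 13.7 CPM after FSH21 and 13.1, 19.3 and 12.7 CPM after FSH24, against 18.01, 27.5 and 25.4 CPM in untreated follicles. Under FSH24 the fall was -0.66 (SE 0.18, adjusted p = 0.0305), the treated and untreated libraries overlapped, and the call was lost when any of 4 of the 6 libraries was left out (highest adjusted p 0.133). Its own row held 4.92% of the counts of the gene and its matched pseudogene rows. Rpl41, which encodes the smallest protein of the ribosome, fell by 0.60 under FSH21 and by 0.68 under FSH24 (SE 0.12 for both).

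Rpl11 and Rpl5 form, with 5S ribosomal RNA, the particle that binds MDM2 and stabilizes p53 when ribosome assembly is disturbed. Rpl11 measured 196, 212 and 218 CPM after FSH21 and 206, 236 and 199 CPM after FSH24, against 292, 273 and 295 CPM without hormone. It fell by 0.46 and by 0.43 (SE 0.10 for both, adjusted p = 0.00635 and 0.0126), and the FSH24 call was lost without FSH24 library 2 (-0.41, adjusted p = 0.0523) or 4 (-0.39, adjusted p = 0.064). Rpl5 was not called in its own row and is taken up below. Rpl13a, released from the ribosome in interferon-treated cells to silence translation, fell by 0.55 and by 0.59 (SE 0.12 for both). Rpl3, which reaches toward the peptidyl transferase center, fell by 0.58 and by 0.59 (SE 0.11 for both). Rpl8, another protein near that center, fell by 0.45 and by 0.47, and Rpl22 by 0.45 and by 0.51 (SE 0.08 for each). Rpl4 and Rpl10 had smaller falls. Rpl4, which reaches into the peptide exit tunnel, fell by 0.37 and by 0.38 (SE 0.09 for both). Its calls were lost without FSH21 library 2 (-0.31, adjusted p = 0.0651) and without FSH24 library 2 (-0.35, adjusted p = 0.0544). Rpl10, which joins last in subunit maturation, fell by 0.34 and by 0.30 (SE 0.07 for both), and its FSH24 call was lost without FSH24 library 2 (-0.26, adjusted p = 0.0646). Rpl10 measured 345, 384 and 376 CPM after FSH21 and 348, 397 and 391 CPM after FSH24, against 487, 439 and 477 CPM without hormone. Its groups did not overlap, so the smaller fold change still separated all libraries.

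None of the paralogs was called lower in its own row. The paralog genes encode proteins that can replace the standard one in some tissues (Rpl3l, Rpl10l, Rpl22l1, Rpl39l, Rps27l) or take part in ribosome assembly (Rpl7l1). Of the 5 tested, 0 were called by edgeR or DESeq2 in any of the 4 comparisons with untreated follicles, and 0 had an unadjusted p under 0.05. At 10 ng/ml edgeR called 4.21% of all genes lower and 5.96% higher under FSH21, and 3.30% and 5.12% under FSH24. With 5 genes, a count of 0 does not set the paralogs apart from all genes. Their median log2 fold change was -0.11 under FSH21 and -0.10 under FSH24 at 10 ng/ml. Rpl7l1 was measured with an SE as small as those of the canonical genes. It had 79.2, 80.1 and 86.4 CPM after FSH21 and 81.7, 77.7 and 81.9 CPM after FSH24, against 87.6, 85.4 and 84.7 CPM without hormone. Its groups overlapped under FSH21. Under FSH24 its treated libraries all lay below the untreated ones, where 10.7% of all genes separated downwards. Its fold changes were -0.07 (SE 0.07, adjusted p = 0.631) and -0.10 (SE 0.07, adjusted p = 0.489), beside -0.51 and -0.54 (SE 0.10 for both) for Rpl7. Rps27l, a p53 target, had 31.4, 27.1 and 30.7 CPM after FSH21 and 30.2, 30.2 and 29.7 CPM after FSH24, against 31.9, 30.0 and 34.2 CPM without hormone. The groups overlapped under both forms, and the fold changes were -0.11 and -0.09 (SE 0.10 for both, adjusted p = 0.607 and 0.69).

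Rps27 itself had 164, 174 and 198 CPM after FSH21 and 171, 191 and 156 CPM after FSH24, against 277, 235 and 257 CPM without hormone. Its calls, -0.52 and -0.57 (SE 0.13 for both), were lost under leaving out 4 of 6 and 3 of 6 libraries in turn (highest adjusted p 0.0897 and 0.07). Rpl22l1 gave -0.19 and -0.21 (SE 0.15 for both) beside the values for Rpl22 above. Rpl39l, at 3.71 to 4.61 CPM in the 9 libraries of numbers 2, 3 and 4, gave -0.04 and -0.16 (SE 0.20 for both) beside -0.49 and -0.52 (SE 0.13 for both) for Rpl39. The Rpl39 calls were lost when any of 4 of the 6 libraries was left out (highest adjusted p 0.105 and 0.0922) and with the replicate number as a block (adjusted p = 0.0628 under FSH21). Rpl10l, at 1.63 to 2.59 CPM in the same libraries, gave -0.31 and 0.11 (SE 0.28 and 0.27). Rps4l, annotated as a pseudogene and set beside Rps4x, gave 0.22 and 0.04 (SE 0.20 for both), beside -0.48 and -0.47 (SE 0.08 for both) for Rps4x. The difference between a paralog and its canonical gene was not tested, and for Rpl22l1, Rpl39l and Rpl10l the SE is large beside the canonical fall. With its matched pseudogene rows added, Rpl22l1 was called lower under FSH21 (-0.35, adjusted p = 0.0348) and was not called under FSH24.

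**Figure D3:**
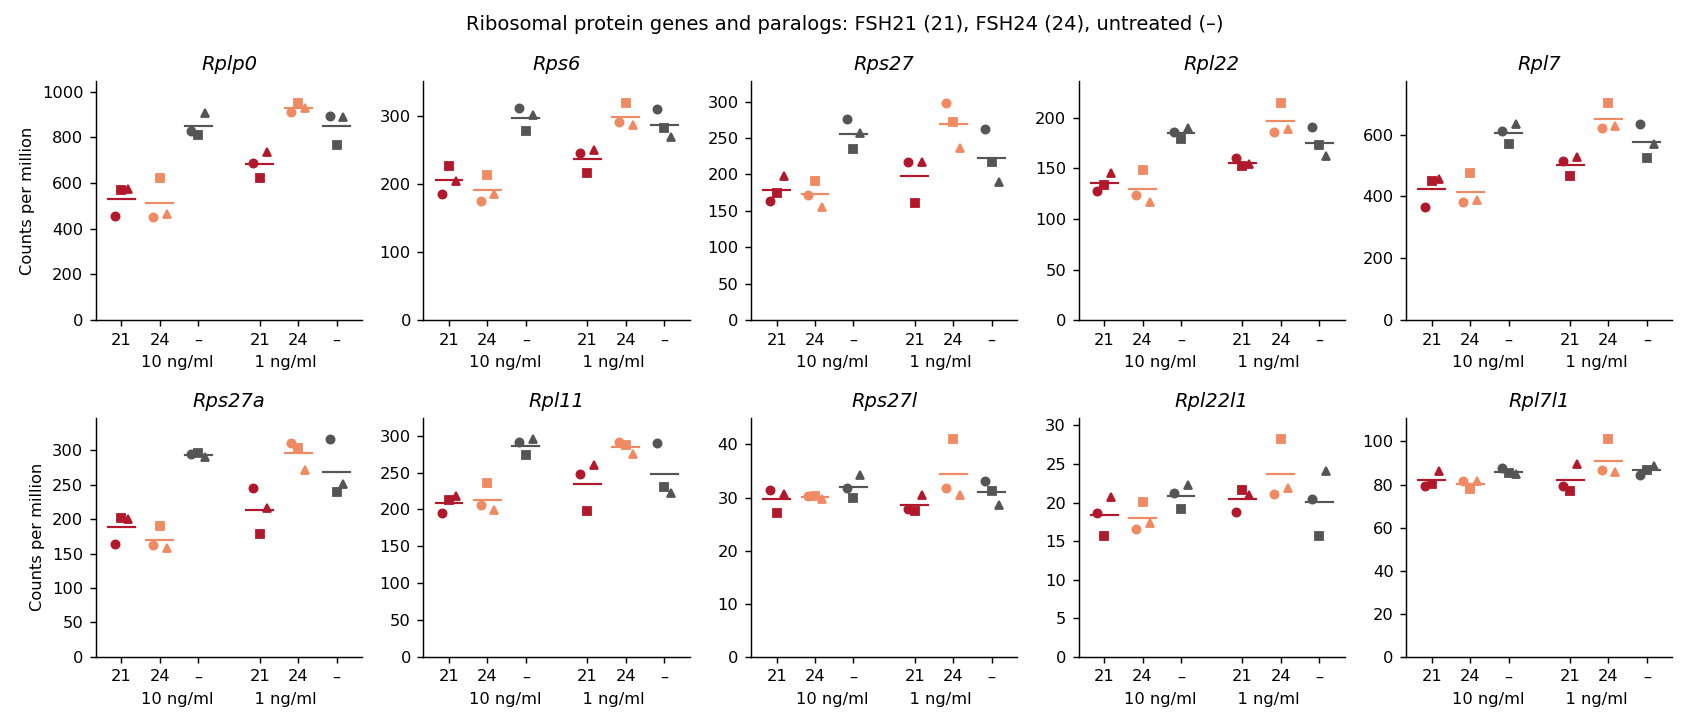
CPM (y axis, from 0) in each library for 7 canonical genes and 3 paralogs, with lines at group means (n = 3) and equal symbols for equal library numbers; x axis labels 21, 24 and – stand for FSH21, FSH24 and untreated. Rplp0, Rps6, Rps27, Rpl22, Rpl7, Rps27a and Rpl11 lie lower after either hormone at 10 ng/ml, while Rps27l and Rpl22l1 overlap their untreated libraries under both forms and none of Rps27l, Rpl22l1 and Rpl7l1 was called.

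Ribosomal protein genes have many processed pseudogenes of nearly the same sequence, and the counting can place their reads in either row. Pseudogene rows outside the family whose transcript matched a member with at least 90% identity over at least 50% of its length numbered 1116. They held 2853335 counts over the 18 libraries, beside 8861321 in the members, or 24.4% of both. In 17 of the 77 canonical genes the own row held under 50% of the counts, and in 39 it held over 90%. All 39 of those largely free of the problem were called lower under both forms at 10 ng/ml, with medians of -0.54 and -0.59. Of the 17 with under 50%, 12 were called under FSH21 and 14 under FSH24, where 4.21% and 3.30% of all genes were called lower.

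Adding the matched rows brought in nearly all the canonical genes that had missed the threshold. The canonical genes called lower then numbered 75 of 77 under FSH21 and 76 of 77 under FSH24, including the same 69 and 71 called in their own rows. Without the added rows, 4.21% and 3.30% of all genes were called lower, and the share with them is not reported here. Rpl24 was not called under either form (adjusted p = 0.106 and 0.140), nor was Rps18 under FSH21 (0.053). This sum was added after the data had been seen. Rps2, a protein of the messenger RNA entry channel, shows the problem most plainly. Its own row had 33.9, 11.1 and 79.1 CPM after FSH21 and 35.9, 12.5 and 61.3 CPM after FSH24, against 45.7, 12.3 and 102 CPM in untreated libraries. The order 3, 2, 4 was the same in each group, and the row's log2 fold changes of -0.36 and -0.54 carried an SE of 1.39. The summed rows had 488, 529 and 533 CPM after FSH21 and 473, 530 and 485 CPM after FSH24, against 762, 668 and 712 CPM without hormone. Their groups did not overlap, and the fold changes were -0.47 (adjusted p = 0.000497) and -0.53 (adjusted p = 0.000229).

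Rpl5 held 2.29% of the summed counts in its own row, which was not called (-0.33 with SE 0.16, adjusted p = 0.241, and -0.22 with SE 0.16, adjusted p = 0.494). Summed, it had 465, 536 and 544 CPM after FSH21 and 469, 576 and 481 CPM after FSH24, against 782, 701 and 782 CPM without hormone. The summed fold changes were -0.55 and -0.57 (adjusted p = 0.00131 and 0.00132), close to the family median. Rps26, whose protein is exchanged under stress in yeast, was separated in all libraries of the same number but varied between numbers. Its own row gave -0.60 and -0.62 (SE 0.22 for both, adjusted p = 0.114 and 0.115). With the replicate number as a block the FSH21 value was called (-0.63, adjusted p = 5.36e-06). The sum gave -0.68 for both (adjusted p = 4.21e-05 and 6.84e-05). Rpl27 had the smallest fall of a canonical gene under FSH21, -0.23 (SE 0.10, adjusted p = 0.155), and fell by 0.34 under FSH24 (adjusted p = 0.0327), a call lost without any of 4 of the 6 libraries (highest adjusted p 0.133). Summed, it fell by 0.41 and by 0.43. Rpl12 gave -0.73 and -0.72 when summed, against -0.88 and -0.66 in its own row, so its fall shrank under FSH21 and grew under FSH24. Of the 5 tested members annotated as pseudogenes, 0 were called under any treatment by edgeR or DESeq2, and 0 had an unadjusted p under 0.05. Beside the shares of all genes called, given above for the paralogs, a count of 0 among 5 rows does not set them apart. Among them, Rps3a3 varied widely within a group, with 181, 250.3 and 1.56 CPM after FSH24 at 1 ng/ml. Its log2 fold change there was -0.435 (SE 0.83, adjusted p = 0.961).

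**Figure D4:**
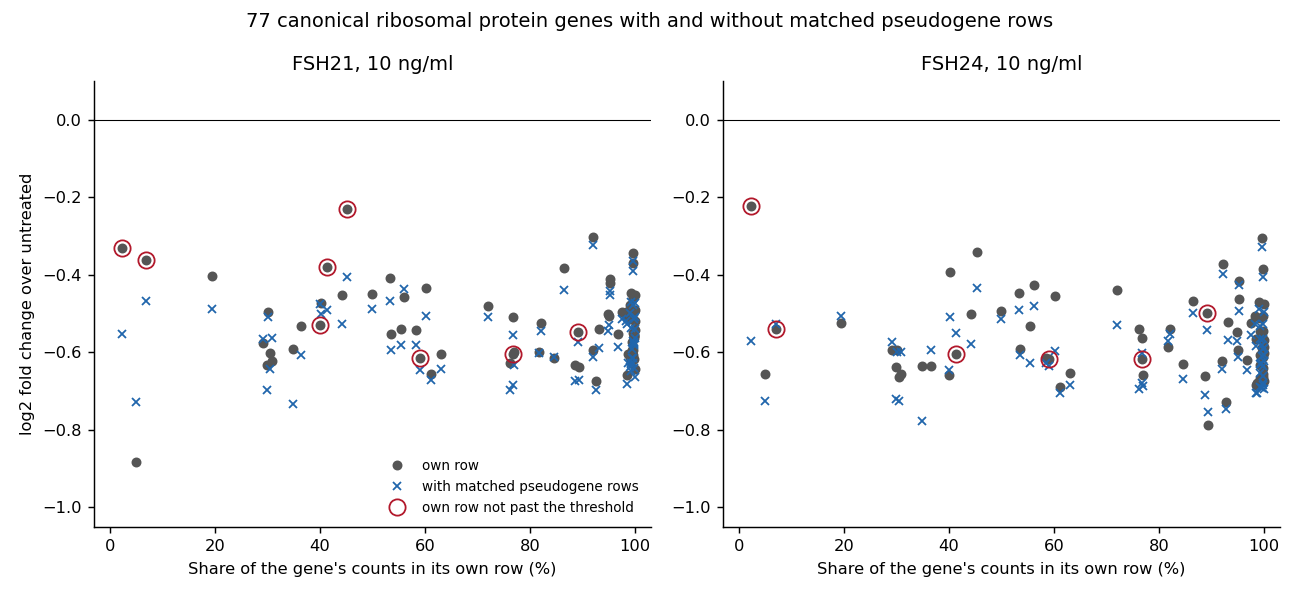
Log2 fold change over untreated libraries at 10 ng/ml (y axis) of the 77 canonical genes against the share of their counts in their own row (x axis, %), for the own row (dots) and with matched pseudogene rows added (crosses); circles mark own rows that missed an adjusted p of 0.05. The 39 genes over 90% are all past the threshold, and the crosses lie in a narrower band than the dots at the left.

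At 1 ng/ml no member passed the threshold under either form. Under FSH21 the median log2 fold change was -0.23 and 84 of 87 members were below 0. The number called was 0 (edgeR), where 0.0374% of all genes were called lower, and 0 were called higher, with 43 lower at an unadjusted p under 0.05, where 3.12% of all genes were. DESeq2 called 2 lower, where it called 0.228% of all genes lower. The libraries did not overlap in 45 of 87 members, where 6.23% of all genes separated downwards. Within numbers 1, 5 and 6 the median ratio was -0.29, -0.30 and -0.11, and 76, 76 and 69 of 77 canonical genes were lower. Over all tested genes the median ratios in these pairs were 0.008, 0.002 and 0.000, and the share that were lower is not reported here. Rplp0 measured 689, 624 and 737 CPM after FSH21, against 894, 767 and 889 CPM without hormone, and Rps20 measured 163, 154 and 156 CPM, against 198, 183 and 189 CPM. Both were lower in every treated library, with fold changes of -0.32 (SE 0.11, adjusted p = 0.478) and -0.27 (SE 0.08, adjusted p = 0.308).

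Under FSH24 at 1 ng/ml the median was 0.13 and 77 of 87 members were above 0. The number called was 0 in either direction, as for all genes (0%), with 5 higher and 0 lower at an unadjusted p under 0.05, where 5.98% of all genes passed in either direction, and 0 by DESeq2. In 8 of 87 members the treated libraries lay above all untreated ones, where 5.30% of all genes did. The number-wise medians were 0.00, 0.31 and 0.10, with the largest in library 5. Rplp0 measured 909, 951 and 928 CPM, against 894, 767 and 889 CPM without hormone, a fold change of 0.13 (SE 0.11, adjusted p = 0.9).

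Set against each other at 1 ng/ml, FSH21 libraries had lower ribosomal protein levels than FSH24 libraries by a median of -0.36 on the log2 scale, with 84 of 87 members below 0. edgeR called 0 lower, as for all genes (0%), although 70 members were lower at an unadjusted p under 0.05, where 4.48% of all genes were. The 3 FSH21 libraries lay below the 3 FSH24 libraries in 69 of 87 members, where 7.09% of all genes separated that way. Whether the difference is called depended on the fit: DESeq2 called 48 of 83 members lower, where it called 1.13% of all genes lower. The smallest adjusted p among the named members was that of Rps20, 0.11, with a difference of -0.40 (SE 0.08). The medians within numbers 1, 5 and 6 were -0.29, -0.59 and -0.21.

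At 10 ng/ml the forms were not told apart in this family. The median difference, FSH21 minus FSH24, was 0.03. The number called was 0, as for all genes (0%), with 0 at an unadjusted p under 0.05 where 2.19% of all genes passed, and 0 by DESeq2. Its sign turned when FSH21 library 4 (-0.01) or FSH24 library 4 (-0.01) was left out. For Rplp0 the difference was 0.06 (SE 0.11) and for Rps6 it was 0.10 (SE 0.09), where the same differences at 1 ng/ml were -0.44 (SE 0.11) and -0.33 (SE 0.09). Whether the contrast between forms differs between doses was not tested. The untreated libraries 2, 3 and 4 set against untreated libraries 1, 5 and 6 gave a median of 0.06, with 0 called, as for all genes (0%), 0 at an unadjusted p under 0.05, where 5.45% of all genes passed, and 0 by DESeq2.

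The dose dependence itself was tested as the difference between the effect at 10 ng/ml and that at 1 ng/ml. For FSH24, 55 of 87 members were called, all lower, where 1.24% of all genes were called lower, with a median difference of -0.70. The called genes comprised 25 small-subunit, 28 large-subunit and 2 stalk genes. Leaving out 1 library at a time gave 40 to 64. Of the members on the list of known roles, Rps27a had the largest difference, -0.926 (SE 0.17, adjusted p = 0.00792), followed by Rplp0 with -0.86 (SE 0.16, adjusted p = 0.0085). Rpl41, which is not on that list, gave -0.932 (SE 0.16, adjusted p = 0.00595). For FSH21 the median difference was -0.30, and 0 members were called, where 0.171% of all genes were called lower. At an unadjusted p under 0.05, 35 were lower, where 3.21% of all genes were, and DESeq2 called 1, where it called 0.681% of all genes lower. The FSH24 difference combines the fall at 10 ng/ml with the small positive median at 1 ng/ml. At 1 ng/ml other short transcripts also had positive medians under FSH24: protein-coding genes outside the family with a transcript length under 600 bases had a median of 0.06 (854 genes), those from 600 to 800 bases one of 0.02 (2461 genes), those from 800 to 1200 bases one of 0.03 (2619 genes), those from 2000 to 4000 bases one of -0.02 (4446 genes) and those over 4000 bases one of -0.05 (1184 genes). For the same 5 length classes the medians were 0.01, 0.01, 0.01, 0.00 and 0.01 under FSH21 at 10 ng/ml and -0.01, -0.00, 0.00, 0.02 and 0.04 under FSH24 at 10 ng/ml. Of the canonical genes, 34 were under 600 bases, 30 between 600 and 800 and 13 between 800 and 1200. The part of transcript length in the dose difference was not tested.

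Among the 77 canonical genes themselves, correlations of the fold change with abundance and length were weak. Across genes, Pearson's r between mean log2 level and log2 fold change was -0.13 under FSH21 (Spearman's rho = -0.21) and -0.14 under FSH24 (rho = -0.08) at 10 ng/ml. Between log2 transcript length and fold change it was 0.03 (rho = 0.05) and 0.09 (rho = 0.08). Between comparisons that share no library, the genes that fell more under FSH21 at 10 ng/ml tended to be those lower under FSH21 at 1 ng/ml (r = 0.34, Spearman's rho = 0.42), and so did the genes that fell more under FSH24 at 10 ng/ml (r = 0.48 and rho = 0.44 with FSH21 at 1 ng/ml). The values under FSH24 at 1 ng/ml gave r = -0.09 and rho = -0.05 with FSH24 at 10 ng/ml, and r = -0.15 and rho = -0.07 with FSH21 at 10 ng/ml. These are descriptions over genes, which are not independent replicates. Any part of pseudogene rows or transcript length in these correlations was not tested.

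Some ribosomal proteins have symbols that the naming rule leaves out. Rack1, a signalling scaffold on the small subunit, had 490.3, 534 and 535 CPM after FSH21 and 478, 535 and 490.2 CPM after FSH24 at 10 ng/ml, against 738, 669 and 706 CPM without hormone. It fell by 0.44 and by 0.49 (SE 0.08 for both, adjusted p = 0.00108 and 0.000571). Fau, which encodes a ubiquitin-like protein fused to a small-subunit protein, was not called, with -0.28 and -0.37 (SE 0.15 for both). Rpl36al, a copy of Rpl36a, was not called either, with -0.11 and -0.24 (SE 0.09 for both).

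Most of the listed translation factors were also called lower, fewer of the ribosome biogenesis genes were, and few mitochondrial ribosomal protein genes were. The lists were not tested against each other, and the shares of all genes called are those given above for the same comparisons. Of 21 translation factors and other TOP transcripts, 16 were called lower under FSH21 and 18 under FSH24 at 10 ng/ml and 0 higher, with medians of -0.34 and -0.33. Gas5, a noncoding host of small nucleolar RNAs with a TOP start, had the largest fall among them, -0.93 (SE 0.18, adjusted p = 0.00319) and -0.83 (SE 0.18, adjusted p = 0.00818). The elongation factor subunit gene Eef1b2 fell by 0.64 and by 0.68 (SE 0.12 for both), Eef1g by 0.59 and by 0.50 (SE 0.15 for both), and Npm1, a nucleolar chaperone, by 0.54 under both forms (SE 0.09 for both). Of 28 ribosome biogenesis genes, 11 were called lower under each form and 0 higher, with medians of -0.22 and -0.22. Polr1a and Polr1b, the largest subunits of RNA polymerase I, fell by 0.70 and by 0.62 under FSH21 (SE 0.09 and 0.13) and by 0.42 and by 0.50 under FSH24 (SE 0.09 and 0.13). Gnl3, a nucleolar GTPase, and Gar1, a protein of the particles that guide pseudouridylation of ribosomal RNA, fell by 0.52 each under FSH21 and by 0.37 and by 0.32 under FSH24 (SE 0.09 for each). Of 80 tested mitochondrial ribosomal protein genes, 3 were called lower and 1 higher under FSH21 and 2 lower and 1 higher under FSH24, with medians of -0.02 and -0.08. Mrps9 (-0.27), Mrps30 (-0.23) and Mrps17 (-0.21) were the 3 lower under FSH21, and Mrps11 (0.42) the higher. Of 30 nuclear genes of the respiratory chain, edgeR and DESeq2 called 0 under either form, with medians of 0.04 and -0.03. At an unadjusted p under 0.05, 1 was higher under FSH21 and 2 were lower under FSH24. The shares of all genes at that threshold are not reported here for 10 ng/ml. Under FSH24 at 1 ng/ml the respiratory chain had a median of 0.19, above that of the ribosomal protein genes. There 12 were higher at an unadjusted p under 0.05, where 5.98% of all genes passed in either direction, and 0 were called.

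**Figure D5:**
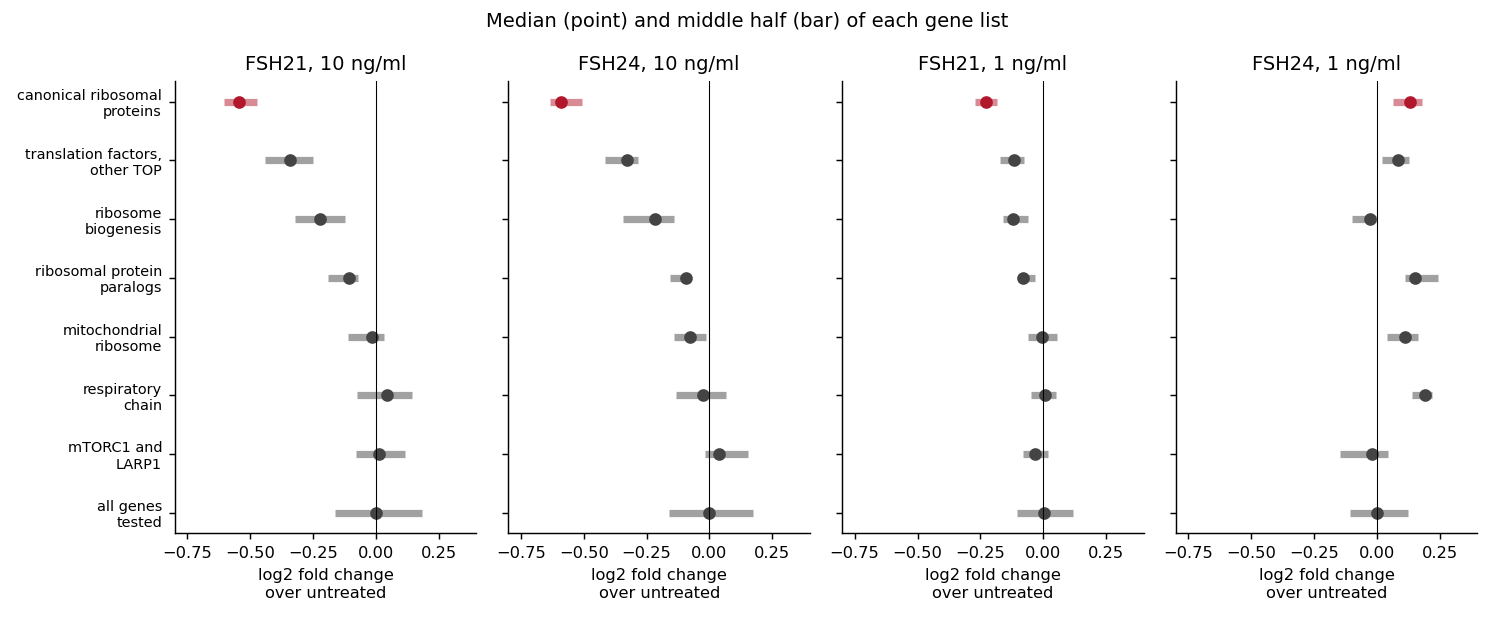
Median (point) and interquartile range (bar) of the log2 fold changes over untreated libraries (x axis) of each gene list (y axis) in the 4 treatment comparisons. At 10 ng/ml the canonical ribosomal proteins lie furthest left with medians of -0.54 and -0.59, translation factors near -0.34, and mitochondrial ribosomal proteins and the respiratory chain near 0.

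Myc and 3 inhibitors of mTORC1 were among the genes called in 2 lists of regulators of ribosome production, most of whose members were not. Myc, a transcription factor that drives ribosome biogenesis, measured 48.3, 55.2 and 48.3 CPM after FSH21 and 47.9, 56.4 and 58.4 CPM after FSH24 at 10 ng/ml, against 123, 124 and 111 CPM without hormone. Its log2 fold changes were -1.24 and -1.14 (SE 0.09 for both, adjusted p = 1.23e-07 and 5.6e-07), and under FSH21 at 1 ng/ml it fell by 0.54 (SE 0.09, adjusted p = 0.0265). Its paralog Mycl fell by 1.89 and by 1.63 (SE 0.16 for both). Of the 12 genes of the MYC network, 3 were called lower and 1 higher under FSH21 and 2 lower and 1 higher under FSH24, with list medians of -0.06 and -0.07. The others called were Mlxip, lower under FSH21 (-0.23, SE 0.07), and the MYC antagonist Mxd3, higher under both (0.65 and 0.61, SE 0.16 for both). Of 21 genes of the mTORC1 and LARP1 pathway, 3 were called, all higher, under each form, with list medians of 0.01 and 0.04. These were the stress-induced inhibitors of mTORC1 Ddit4, Sesn2 and Sesn3. Ddit4 measured 118, 146 and 141 CPM after FSH21 and 107, 123 and 86.0 CPM after FSH24, against 62.4, 62.6 and 67.7 CPM without hormone. It rose by 1.07 (SE 0.14, adjusted p = 0.000103) and 0.71 (SE 0.14, adjusted p = 0.00378). Sesn2 rose by 0.68 and 0.56 (SE 0.09 for both) and Sesn3 by 0.68 and 0.66 (SE 0.11 for both). These levels are messenger RNA and say nothing of the activity of the kinase.

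The labelled tissue was checked against its markers. All 10 oocyte and all 10 granulosa markers were detected and tested, while 4 blood and immune markers together reached at most 0.705 CPM in any library. The oocyte markers had medians of -0.15 under FSH21 and -0.18 under FSH24 at 10 ng/ml, and all 10 were below 0 under both forms. Of the 18727 tested genes, 9361 and 9357 were below 0. Of these markers edgeR called 0, where 4.21% and 3.30% of all genes were called lower. At an unadjusted p under 0.05, 2 and 3 were lower, and DESeq2 called 0 and 1. The shares of all genes by these last rules are not reported here. The summed level of the oocyte markers was 3992 to 4505 CPM after FSH21 and 4012 to 4287 CPM after FSH24. In the untreated libraries it was 4548 to 4792 CPM, without overlap. Among single genes, 12% under FSH21 and 10.7% under FSH24 separated downwards in the same way. The summed granulosa markers were 7793 to 8417 CPM after FSH21 and 7389 to 8041 CPM after FSH24, against 6905 to 8399 CPM, with overlap. Of the granulosa markers, Kitl and Foxl2 rose and Fst fell under both forms, and Cyp19a1 rose under FSH21. The 6 theca and stroma markers summed to 1493 to 1957 CPM after FSH21 and 1607 to 2315 CPM after FSH24, against 1607 to 2489 CPM. Among them 1 was called, Cyp17a1, higher under both forms (2.22 and 2.12, SE 0.46 for both). Its level was low, at 3.35 to 6.70 CPM after FSH21 and 3.67 to 5.74 CPM after FSH24, against 0.99 to 1.12 CPM. The 2 endothelial markers summed to 52.3 to 73.2 CPM after FSH21 and 59.1 to 69.9 CPM after FSH24, against 54.5 to 87.4 CPM. The part of cell type composition in the ribosomal protein result was not tested.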

How the data were processed

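Polyadenylated RNA of mouse early secondary follicles had been sequenced as 18 libraries on 4 lanes each (72 deposited samples). Per the file headers, the authors deposited RSEM expected counts by gene, with the lanes of a library merged into 1 column. The build mm10 and the tools STAR 2.7, bcl2fastq and FastQC are listed, per the submitters' processing notes, without their settings. The annotation and use of strand are not given in the sources used here, so overlapping antisense genes cannot be told apart. Fractional values made up 33.9% of those above 0, and all were rounded to whole numbers before fitting.

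All 18 libraries in 6 groups of 3 were fitted with edgeR 4.0.16 under R 4.3.3 (TMM, filterByExpr with a minimum count of 10, robust quasi-likelihood test, biological coefficient of variation 0.135), and p-values were adjusted by Benjamini-Hochberg over all tested genes. SE is the absolute log2 fold change over the root of F. DESeq2 1.42.0, other scalings, other filters, a replicate block, added pseudogene rows and leaving out each library were alternatives. The test was checked on simulated data. Same-numbered libraries deviated together for FSH21 at 10 ng/ml and its untreated libraries (r = 0.193, 0.206 and 0.126 for numbers 2, 3 and 4), which came from the data and not from the labels. Depth was 17512921 to 22509689 counts. The members, gene lists and tests were chosen with earlier results of these data known. Named genes were, at 10 ng/ml, up to 6 called members with the largest changes, the 6 tested members with the smallest, a list of members with known roles, paralogs beside their canonical genes, and up to 4 called genes per other list. Some genes that this rule names are not reported here. Members too few in counts were not tested.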

Additional observations from a re-analysis of the deposited data

Results flagged for a closer look

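The change under FSH24 differed between doses by the test of that difference (edgeR's quasi-likelihood test), the effect at 10 ng/ml minus that at 1 ng/ml, in 55 of the 87 tested members. Of the members listed by role, the difference was called for Rplp0 (-0.86), Rplp2 (-0.73), Rpsa (-0.72), Rps6 (-0.70), Rps3 (-0.76), Rps19 (-0.74), Rps27a (-0.93), Rpl11 (-0.63), Rpl13a (-0.74), Rpl8 (-0.57), Rpl22 (-0.68) and Rpl3 (-0.65) on the log2 scale. The calls of Rpl11, Rpl13a, Rpl3 and Rpsa were lost when any of 8, 8, 6 and 3 of the 12 libraries was left out, with highest adjusted p-values of 0.08, 0.0841, 0.0703 and 0.0576. Each dose had its own numbers and untreated libraries, so dose and number set cannot be told apart.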

How the results depend on the processing

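The counts of members called lower at 10 ng/ml and in the FSH24 dose difference stayed within 1.5 times of 69, 71 and 55 under the alternatives run, and 0 members were called higher under any. Over the 12 other alternatives the range was 59 to 76 under FSH21 and 62 to 76 under FSH24, and over 11 it was 50 to 73 for the dose difference. The medians ranged from -0.57 to -0.51, from -0.61 to -0.53 and from -0.73 to -0.70. Leaving out 1 library gave 56 to 67, 54 to 70 and 40 to 64, with medians from -0.60 to -0.48, from -0.67 to -0.53 and from -0.79 to -0.66. The other medians over leaving out 1 library ranged from -0.27 to -0.16 (FSH21, 1 ng/ml), 0.08 to 0.18 (FSH24, 1 ng/ml), -0.01 to 0.12 (FSH21 minus FSH24, 10 ng/ml), -0.41 to -0.30 (the same at 1 ng/ml), -0.38 to -0.24 (FSH21 dose difference) and 0.02 to 0.11 (untreated). Counts of 0 became, for FSH21 at 1 ng/ml, 2 with DESeq2, 2 without the filter and 3 with the replicate block. For FSH21 against FSH24 at 1 ng/ml they became 48, 21 and 22, and for the FSH21 dose difference 1 with DESeq2 and 1 with the block. The cause was not tested. Reversals were Rpl39l under FSH21 with all untreated libraries as 1 group (0.052), Rps4l under FSH24 over leaving out 1 library (-0.075 to 0.142, below 0 without FSH24 library 3 or 4 or untreated library 2), and Rps2. Over leaving out 1 library Rps2 ranged from -1.26 to 0.49 under FSH21 (above 0 without FSH21 library 3 or untreated library 4), from -1.15 to 0.31 under FSH24 (above 0 without untreated library 4) and from -1.38 to 2.94 in the FSH24 dose difference (above 0 without untreated library 4 or 1 or FSH24 library 5), where the block gave 0.36. Over all genes, the block raised the genes called lower from 789 to 1240 (FSH21) and from 618 to 1045 (FSH24) at 10 ng/ml, from 7 to 78 and from 0 to 67 in the 1 ng/ml comparisons above, from 32 to 113 and from 232 to 503 in the dose differences, and the FSH24 higher calls from 959 to 1502. DESeq2 gave 41 for FSH21 at 1 ng/ml, 124 for FSH21 against FSH24 at 1 ng/ml, and 89 and 393 for the dose differences, and no filter gave 23, 44 and 55 in the first 3 of these. All untreated libraries as 1 group gave 1281 and 950 lower at 10 ng/ml. The genes called under FSH21 at 1 ng/ml split into 17 higher and 7 lower with TMM, and into 15 and 10 with upper-quartile factors. Outside FSH21 at 10 ng/ml not every pair deviated together by over 0.1 (lowest r = 0.05), though each library correlated best with its own number. Depth limits Rpl10l, Rpl39l and the untested rows.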
